A study of Mus musculus with 8 samples.

Results

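The ERVK repeats other than IAP are 260 of the 1153 repeat subfamilies in a count table of 25215 rows from mouse fibroblasts. They were taken by name alone: every repeat row whose family field is ERVK and whose name does not start with IAP. Of these, 36 are internal parts, with names ending in -int, and 224 are long terminal repeats (LTRs). A low-count filter left 246 for testing, all 36 internal parts and 210 LTRs. The other 14, all LTRs, held at most 51 counts over the 8 libraries, and 3 of them (RLTR43A, RLTR43B and RMER3D4) held none.

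Endogenous retroviruses (ERVs) are germline copies of retroviruses. A full copy has an internal part, which once encoded the gag, pro and pol proteins, between LTRs that carry the promoter and the polyadenylation signal, and many copies have been reduced to a solitary LTR. The ERVK class is related to betaretroviruses and holds several of the youngest mouse families, among them IAP, ETn/MusD and MMERVK10C, as well as mouse mammary tumour virus (MMTV). In many mouse cells these copies are kept silent by SETDB1 with TRIM28, which place H3K9 methylation, and by DNA methylation. Polycomb complexes are another silencing system: PRC2, through EZH1 or EZH2, methylates H3K27, and PRC1, through RING1A or RING1B, ubiquitinates histone H2A.

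The study sequenced polyA RNA from immortalized mouse embryonic fibroblasts named 6KO iMEFs, whose genotype is described as a knockout of Setdb1, Suv39h1/2, Ehmt1, Ehmt2 and Ring1b. All 8 libraries share this genotype, and no library with another genotype was analysed here. The named genes still carried reads: over the 8 libraries Setdb1 stood at 4.33 to 13.1 CPM (counts scaled to the TMM-adjusted library size), Suv39h1 at 54.2 to 89.9, Suv39h2 at 12.2 to 21.3, Ehmt1 at 35.7 to 51.0, Ehmt2 at 98.9 to 217 and Rnf2, the gene of RING1B, at 26.4 to 89.0. Counts over a whole gene do not show whether a part of it is deleted, so the genotype is given as labelled. The control libraries carried a control shRNA, and the knockdown libraries carried an shRNA against Ring1a (gene symbol Ring1). The inhibitor libraries carried the control shRNA and were grown for 7 days in 1 µM DS3201, which blocks the catalytic activity of EZH1 and EZH2. The combined libraries carried the Ring1a shRNA and received the same DS3201 treatment. The Ring1a shRNA came by lentivirus. A multiplicity of infection of 2 and selection with BSD at 7 µg/ml for 3 days are listed for all 8 libraries, those with the control shRNA included. Each group had 2 libraries. They are told apart by a prefix of the column name and are called set 20 and set 28. The labels do not say that the replicates are separate cultures, so p-values measure only how far these libraries differ, a spread that may be technical.

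Libraries held 12738585 to 23688253 counts. Ring1 stood at 20.2 and 9.73 CPM in the control libraries of sets 20 and 28, at 4.51 and 1.41 in the knockdown, at 20.4 and 7.50 in the inhibitor and at 3.51 and 2.04 in the combined libraries. Within each set Ring1 was thus lower in both libraries with the shRNA. Without inhibitor its log2 fold change was -2.32 ± 0.76 (SE, adjusted p = 1.00) in the edgeR model with 1 term per group, and -2.42 ± 0.29 (adjusted p = 0.705) where the set was added as a block, so it did not pass after adjustment over all rows. All 8 fibroblast markers on the list used had at least 1 count in every group, with a summed level of 18107 to 20771 CPM without DS3201 and 12163 to 14672 CPM with it. Of these, Thy1 was near the floor, at 0.427 CPM or less in every library and at 0 in the inhibitor and combined libraries of set 28. The summed markers of blood, epithelial, endothelial and pluripotent cells reached at most 22.5 CPM in any library. The part of these changes in the results below was not tested.

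The inhibitor library of set 28 stood apart before any test. Repeats of all kinds took 14.6% of its counts, against 8.59% to 12.95% in the other 7 libraries. Rows of the L1 family, which are not ERVs, took 2.58% there and 0.997% to 1.32% elsewhere. Results that rest on this library are therefore given with and without it, and its part in them was not tested where only 1 value is given.

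As a group, the ERVK repeats other than IAP took a larger share of the counts in all 4 libraries with DS3201. The share was 0.906% in control set 20 (exact binomial 95% interval 0.902% to 0.910%) and 1.00% in control set 28 (0.999% to 1.01%). It was 0.904% and 1.00% in the knockdown libraries, 1.23% and 1.45% in the inhibitor libraries, and 1.21% and 1.29% in the combined libraries, set 20 first. The lowest share with DS3201 was thus above the highest share without it, and the knockdown libraries lay beside the controls. The intervals cover counting error only and treat each read as a separate molecule. PCR reads that carry no molecular identifier cannot be counted as separate molecules, so the intervals may be too narrow. More cells with such transcripts and more transcript per cell cannot be told apart in bulk RNA. IAP elements, their relatives in the same class, took 3.53% to 4.15% without DS3201 and 4.602% to 5.87% with it.

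These counts were concentrated in few subfamilies. MMERVK10C-int and MMERVK10D3_I-int together held 55.6% of all member counts, and the 20 most counted members held 75.8%. By mean over the 8 libraries, 11 of the 246 tested members were under 1 CPM, 132 lay between 1 and 10 CPM, 92 between 10 and 100 CPM and 11 at 100 CPM or above. CPM scales for library size and not for the length or copy number of a subfamily, so levels are compared here between libraries and not between subfamilies.

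The comparison with DS3201 asks what was added by inhibiting EZH1 and EZH2 in these cells, and most members were higher with the inhibitor. Pooled over both shRNAs, 226 of 246 members had a positive log2 fold change in the model without a term for the set, with a median of 0.44, beside 0.04 over all 15287 rows tested. In that model the median was 0.38 over all tested repeats, 0.46 for IAP, 0.48 for ERV1, 0.32 for ERVL and MaLR and 0.45 for L1. The shift was thus not particular to these members. That model (edgeR quasi-likelihood test, Benjamini-Hochberg adjustment over all rows, threshold 0.05) called 5 members higher, 2.03% of those tested, and 0 lower. Over all rows it called 5.24% higher. At an unadjusted p under 0.05 it had 50 members higher and 1 lower, beside 2028 higher and 678 lower of all 15287 rows. With the set as a block, which removes the difference between sets 20 and 28 from the spread, 34 members rose, 13.8% of those tested, and 0 fell, where 12.9% of all rows rose and 4.16% fell. DESeq2 called 18 members higher and 0 lower, beside 8.79% and 1.72% of all rows. The share of members called was near that of the whole table with the block and with DESeq2 and below it without the block, and the count of calls says nothing particular to these repeats. Of the 246, 6 passed the low-count filter only through libraries with DS3201 and 1 (RLTR9A4) only through those without it. Of these 6, ERVB4_3-LTR_MM and RLTR3_Mm are among both the 5 and the 34 members called. Such rows had to be higher with DS3201 to be tested, so their calls carry no support.

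The calls depended on single libraries. Without the inhibitor library of set 20, which leaves that of set 28 alone in its group, 124 members rose with the block, beside 22.8% of all rows, and 24 without it, beside 4.86%. Leaving out any 1 of the 6 libraries of the other groups gave 7 (combined set 20, beside 5.81% of all rows) to 13 (control set 28, beside 10.7%) with the block and 1 to 2 without it, beside 0.978% to 3.05%. The size of the shift also depended on the inhibitor library of set 28. Without that library the median over the members, fitted with the block, was 0.217 in place of 0.434, beside -0.009 over all rows, and 193 of 247 members were positive. With the block, 28 members then rose and 3 fell, where 14.2% of all rows rose and 11.8% fell. Of the 34 members that rose with all 8 libraries, 24 (70.6%) were among these 28 (85.7%), and all 34 kept a positive log2 fold change. Without the block and without this library only ERVB4_3-I_MM-int rose, at 2.46 ± 0.25 (SE, adjusted p = 0.0316), where 1.59% of all rows did.

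Each set can also be read apart. With control shRNA, the median member difference between the inhibitor and the control library was 0.286 (log2) in set 20 and 0.819 in set 28, and 179 members (72.8%) were higher in both sets, beside 35.4% of all rows. With Ring1a shRNA, the median difference between the combined and the knockdown library was 0.303 in set 20 and 0.213 in set 28, and 145 members (58.9%) were higher in both sets, beside 36.9% of all rows. These comparisons share no library, and set 28 with control shRNA was the one with the larger median. Among all 894 tested repeats, members included, 634 were higher in both sets with control shRNA and 479 with Ring1a shRNA. A simpler count used no model: in 49 of 246 members (19.9%) all 4 libraries with DS3201 lay above all 4 without it, and in 0 did they all lie below, where 12.3% of all rows lay above and 5.28% below. The 49 include RLTR3_Mm and ERVB4_3-LTR_MM, which passed the low-count filter only through libraries with DS3201 and so carry no support. Both are also among the members higher in both sets under each shRNA. Among all 894 tested repeats, members included, 173 lay above and 0 below, and among the 126 L1 rows 34 and 0. The separation was thus not particular to these members. Leaving out the inhibitor library of set 28, 52 members lay above, beside 15.4% of all rows. The 52 include RLTR3_Mm, ERVB4_3-LTR_MM and RLTR20C, each of which passed the low-count filter only through libraries with DS3201.

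**Figure D1:**
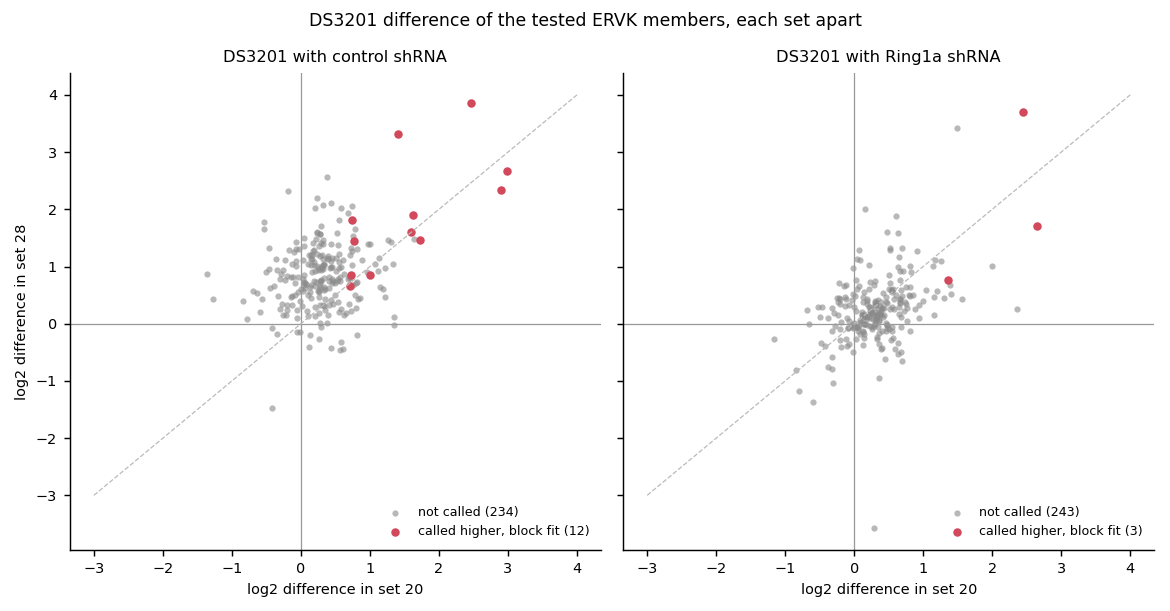
Log2 difference of each of the 246 tested members between the DS3201 library and its partner, set 20 on the horizontal axis and set 28 on the vertical axis, with control shRNA (left) and Ring1a shRNA (right); red points were called higher in the fit with the block, and the dashed line marks equal differences. On the left most points lie above the line (medians 0.286 and 0.819), and on the right they gather about it (0.303 and 0.213).

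Members that rose were found in each level class from 1 CPM upward. The only 1 under 1 CPM, RLTR3_Mm, passed the low-count filter only through libraries with DS3201, so its call carries no support. The same holds for ERVB4_3-LTR_MM, which is counted in the class from 1 to 10 CPM. With the block, 39.1% of all rows under 1 CPM rose and 2.35% of those at 100 CPM or above did. Among members the share was 9.09% under 1 CPM (1 of 11), 12.9% from 1 to 10 CPM (17 of 132), 13.0% from 10 to 100 CPM (12 of 92) and 36.4% at 100 CPM or above (4 of 11). Among these highly counted rows the median log2 fold change was 0.291 for members and -0.017 for all rows. None of the 5 members called without the block was at 100 CPM or above. The 34 log2 fold changes ran from 0.516 to 4.27, the value of RLTR3_Mm, with a median of 1.02.

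**Figure D2:**
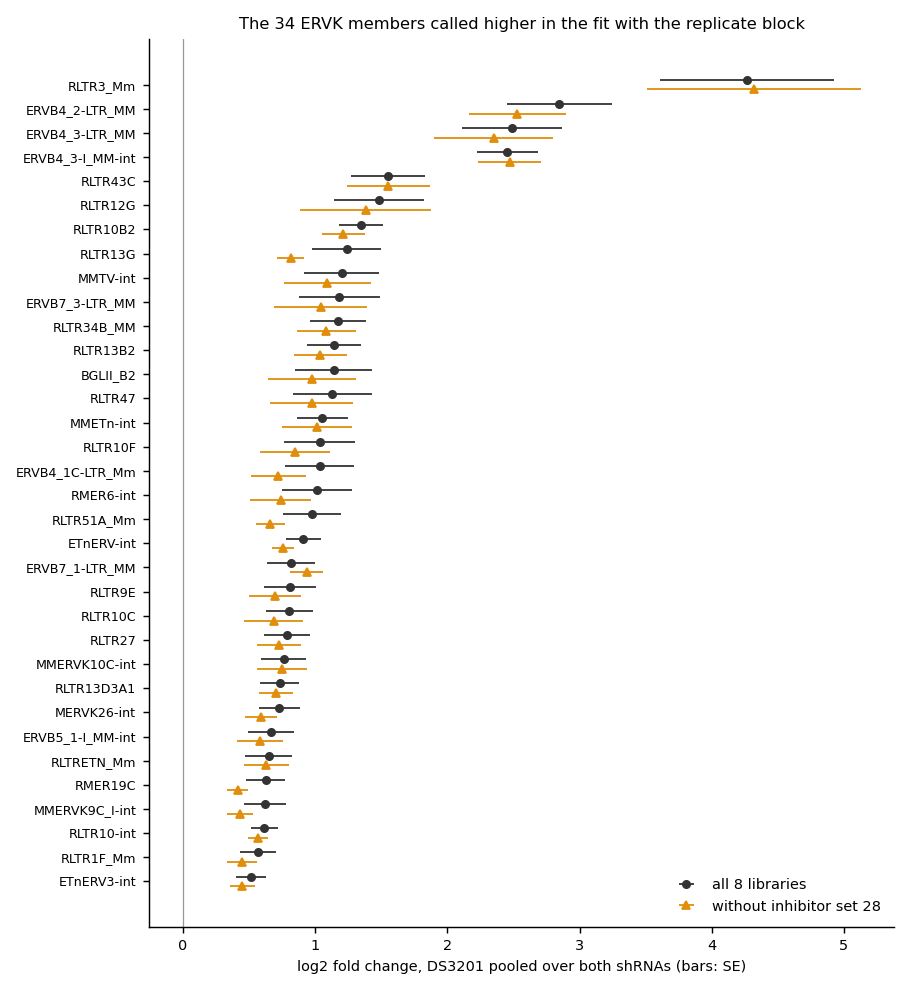
Log2 fold change with DS3201, pooled over both shRNAs, of the 34 members called higher in the fit with the block (horizontal axis; bars are 1 SE), with all 8 libraries (black circles) and without the inhibitor library of set 28 (orange triangles). All 34 stay above 0 without that library, and the highest values belong to RLTR3_Mm, ERVB4_2-LTR_MM, ERVB4_3-LTR_MM and ERVB4_3-I_MM-int. RLTR3_Mm and ERVB4_3-LTR_MM passed the low-count filter only through libraries with DS3201.

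The member with the smallest adjusted p was ERVB4_3-I_MM-int, the internal part of an ERVB4 subfamily. It stood at 1.80 and 2.41 CPM in the control libraries, at 2.76 and 3.63 in the knockdown, at 14.3 and 12.6 in the inhibitor and at 17.9 and 12.1 in the combined libraries, set 20 first. All 4 libraries with DS3201 were above 12 CPM and all 4 without it below 4 CPM. It rose by a log2 fold change of 2.45 ± 0.25 (SE) pooled over both shRNAs (adjusted p = 0.00664), and by 2.67 ± 0.36 with control shRNA (adjusted p = 0.0425). With Ring1a shRNA it rose in the fit with the block alone, by 2.23 ± 0.32 (adjusted p = 0.0105).

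Its LTR, ERVB4_3-LTR_MM, was likewise higher with DS3201. It stood at 0.190 and 0.402 CPM in the control, 0.447 and 0.605 in the knockdown, 2.32 and 3.18 in the inhibitor and 2.13 and 1.34 in the combined libraries. The groups with and without DS3201 did not overlap, but the row passed the low-count filter only through the libraries with DS3201, so no test is given for it. Reads from an internal part and from its own LTR can come from the same copies, so this is not a second independent measure.

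In the ERVB4_2 subfamily the LTR rose and the internal part did not pass the test. ERVB4_2-LTR_MM stood at 1.19 and 0.872 CPM in the control, 0.609 and 0.538 in the knockdown, 3.34 and 9.71 in the inhibitor and 3.83 and 8.43 in the combined libraries. All libraries with DS3201 lay above all without it, set 28 highest, and the pooled rise was 3.02 ± 0.49 (SE, adjusted p = 0.0217). ERVB4_2-I_MM-int stood at 233 and 185 CPM in the control, 235 and 222 in the knockdown, 129.6 and 243 in the inhibitor and 149 and 220.5 in the combined libraries. Here the DS3201 libraries of set 20 were the lowest of all 8, the inhibitor library of set 28 was the highest and the combined library of set 28 lay among the rest, with a pooled log2 fold change of -0.24 ± 0.25 (adjusted p = 0.694). The difference between the LTR and the internal part was not itself tested.

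Of the 20 tested ERVB rows, 7 rose with the block (35%, beside 12.9% of all rows), with a median of 0.595. Of these 7, ERVB4_3-LTR_MM passed the low-count filter only through libraries with DS3201, so its call carries no support. Beside the 3 above, the rows called with the block were ERVB4_1C-LTR_Mm, ERVB7_1-LTR_MM, ERVB7_3-LTR_MM and ERVB5_1-I_MM-int. Without the block 3 of the 20 rose, beside 5.24% of all rows: ERVB4_3-I_MM-int, ERVB4_2-LTR_MM and ERVB4_3-LTR_MM. ERVB5_1-I_MM-int had 4.08 and 6.98 CPM in the control and 6.11 and 11.7 in the inhibitor libraries. Its lowest library with DS3201 (6.02 CPM) lay below its highest without it (6.98 CPM), so its groups overlapped. The adjusted p of its pooled rise was 0.0427 with the block and 0.434 without it. ERVB7_1-LTR_MM was at 5.18 and 7.65 CPM in the control, 7.39 and 12.2 in the knockdown, 11.9 and 11.7 in the inhibitor and 12.5 and 19.2 in the combined libraries. Its groups overlapped, because the knockdown library of set 28 was above both inhibitor libraries, and the rise of 0.82 ± 0.18 (SE) passed only with the block (adjusted p = 0.0226, 0.182 without it).

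**Figure D3:**
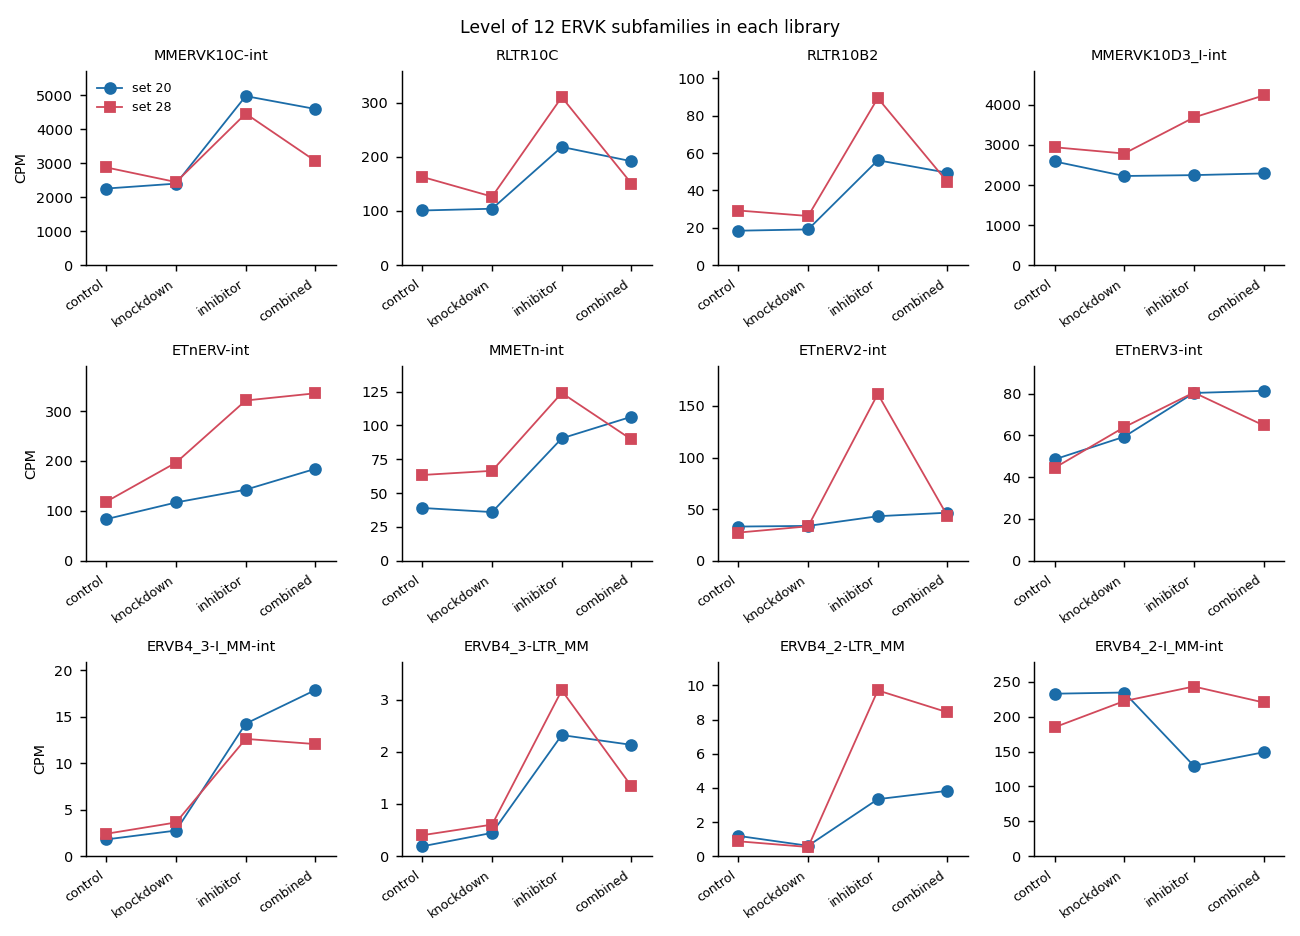
Level in CPM (linear vertical axis starting at 0, with its own scale in each panel) of 12 members in the 4 groups, with set 20 as blue circles and set 28 as red squares joined by lines. ERVB4_3-I_MM-int rises from at most 3.63 CPM to at least 12.1 CPM with DS3201 in both sets, whereas the 162 CPM of ETnERV2-int occurs in 1 library only.

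MMERVK10C-int, the internal part of a young family that is widely used as a reporter of ERVK silencing, was the most counted member. It stood at 2257 and 2879 CPM in the control libraries, 2402 and 2448 in the knockdown, 4982 and 4465 in the inhibitor and 4602 and 3069 in the combined libraries. All DS3201 libraries were above all others, with the combined library of set 28 the lowest of the 4. The pooled log2 fold change was 0.76 ± 0.17 (SE) with the block (adjusted p = 0.0231) and 0.77 ± 0.19 without it, where it missed the threshold (adjusted p = 0.0765). Without the inhibitor library of set 28 it was 0.75 ± 0.19 with the block (adjusted p = 0.0406).

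RLTR10C, the LTR of that family, was at 101 and 163 CPM in the control, 104 and 126 in the knockdown, 218 and 310.1 in the inhibitor and 192 and 151 in the combined libraries. The combined library of set 28 lay below the control of its own set, so the groups overlapped. The rise of 0.81 ± 0.18 (SE) passed with the block (adjusted p = 0.0222) and not without the inhibitor library of set 28, where it was 0.69 ± 0.22 (adjusted p = 0.0982). RLTR10B2, a related LTR by its name, was at 18.4 and 29.2 CPM in the control, 19.1 and 26.3 in the knockdown, 56.1 and 89.4 in the inhibitor and 49.4 and 44.5 in the combined libraries. It separated the groups and was among the 5 members called without the block, at 1.33 ± 0.24 (SE, adjusted p = 0.0296). Its block value without the inhibitor library of set 28 was 1.21 ± 0.16 (adjusted p = 0.00857).

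Of the 15 members named MMERVK or RLTR10, 6 rose with the block (40.0%, beside 12.9% of all rows), with a median of 0.617. The other 3 were RLTR10-int, RLTR10F and MMERVK9C_I-int, with log2 fold changes of 0.62 ± 0.10, 1.04 ± 0.27 and 0.62 ± 0.16 (SE). Without the block 1 of the 15, RLTR10B2, rose, beside 5.24% of all rows. MMERVK10D3_I-int, the second most counted member, did not pass: it was at 2589 and 2944 CPM in the control, 2226 and 2787 in the knockdown, 2248 and 3688 in the inhibitor and 2290 and 4236 in the combined libraries. In set 28 it was higher with DS3201 and in set 20 the 4 libraries lay between 2226 and 2589 CPM, and the pooled value was 0.19 ± 0.15 (SE, adjusted p = 0.428). MMERVK9E_I-int and RLTR10D2 also missed the threshold, at 0.14 ± 0.13 and 0.12 ± 0.16.

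ETn elements are short, non-coding transposons of this class, and MusD elements are their coding relatives. ETnERV-int stood at 83.3 and 118 CPM in the control, 117 and 197 in the knockdown, 142 and 321 in the inhibitor and 184 and 336 in the combined libraries. Within each set the order was control, knockdown, inhibitor, combined, while across sets the knockdown of set 28 lay above the DS3201 libraries of set 20. With the block the pooled DS3201 rise was 0.91 ± 0.13 (SE, adjusted p = 0.00462), and without it adjusted p was 0.218.

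MMETn-int was at 38.9 and 63.3 CPM in the control, 35.9 and 66.4 in the knockdown, 90.4 and 124 in the inhibitor and 106 and 89.6 in the combined libraries. All DS3201 libraries lay above all others, and the block value was 1.06 ± 0.19 (SE, adjusted p = 0.0110). Without the inhibitor library of set 28 the fold change stayed at 1.01 ± 0.26, but adjusted p was 0.0672. ETnERV3-int and the LTR RLTRETN_Mm also separated the groups and rose with the block, by 0.52 ± 0.11 and 0.65 ± 0.18 (SE).

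ETnERV2-int was highest by far in 1 library. It was at 33.1 and 27.2 CPM in the control, 33.7 and 33.3 in the knockdown, 43.1 and 162 in the inhibitor and 46.5 and 43.3 in the combined libraries. The inhibitor library of set 28 was far above the other 7, which lay between 27.2 and 46.5 CPM. The other 3 libraries with DS3201 also lay above all 4 without it, so the groups did not overlap with or without that library. With DS3201 and control shRNA the block value was 1.64 ± 0.51 (SE, adjusted p = 0.110), and without that library it was 0.39 ± 0.13 (adjusted p = 0.135). In all, 4 of the 5 ETn/MusD rows rose pooled over both shRNAs with the block (80.0%, beside 12.9% of all rows), with a median of 0.911, and ETnERV2-int was the fifth. Without the block 0 of the 5 passed, beside 5.24% of all rows.

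MMTV-int, the internal part of mouse mammary tumour virus copies, had few counts. It stood at 0.760 and 0.805 CPM in the control, 0.934 and 1.48 in the knockdown, 1.64 and 2.29 in the inhibitor and 2.64 and 2.43 in the combined libraries, and the groups with and without DS3201 did not overlap. With the block it rose by 1.20 ± 0.28 (SE, adjusted p = 0.0290). Without the inhibitor library of set 28 it was 1.09 ± 0.33 (adjusted p = 0.0549).

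RLTR3_Mm had few counts. It held 1 and 0 counts in the control, 2 and 1 in the knockdown, 14 and 18 in the inhibitor and 7 and 29 in the combined libraries, and so separated the groups. The ratio of scaled counts was 39.7 for inhibitor to control and 15.0 for combined to knockdown. These ratios are imprecise: they rest on counts summed within each group, with 1 and 3 counts in the lower group. RLTR3_Mm passed the low-count filter only through the libraries with DS3201, so no test is given for it.

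The LTR groups named RLTR13 and RLTR9 include elements known as enhancers in embryonic or trophoblast stem cells. With the block, 3 of 23 RLTR13 rows rose (13.0%, namely RLTR13G, RLTR13B2 and RLTR13D3A1) with a median of 0.374, and 1 of 12 RLTR9 rows rose (8.33%) with a median of 0.122, beside 12.9% of all rows. That row, RLTR9E, was at 3.99 and 6.10 CPM in the control, 5.52 and 5.11 in the knockdown, 7.87 and 11.6 in the inhibitor and 7.91 and 9.32 in the combined libraries, with all DS3201 libraries above the others and a rise of 0.81 ± 0.20 (SE, adjusted p = 0.0328). RLTR13D5 missed the threshold at 0.71 ± 0.28 (adjusted p = 0.137).

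The RMER group had 2 of 42 rows that rose with the block (4.76%, namely RMER6-int and RMER19C), although all 42 pooled log2 fold changes were positive, with a median of 0.4. Among the 96 other RLTR rows 8 rose (8.33%), with a median of 0.415. These 8 include RLTR3_Mm, which passed the low-count filter only through libraries with DS3201. Over all rows 12.9% rose. Another of the 8, RLTR12G, had 2.90 and 5.23 CPM in the control, 4.43 and 11.9 in the knockdown, 9.23 and 14.8 in the inhibitor and 23.3 and 14.2 in the combined libraries. Its groups overlapped, and its rise of 1.48 ± 0.34 (SE, adjusted p = 0.0266) did not pass without the inhibitor library of set 28, at 1.38 ± 0.50 (adjusted p = 0.124). The 3 MYSERV rows did not pass, at a median of 0.325, and MYSERV-int was at 0.21 ± 0.15 (SE).

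**Figure D4:**
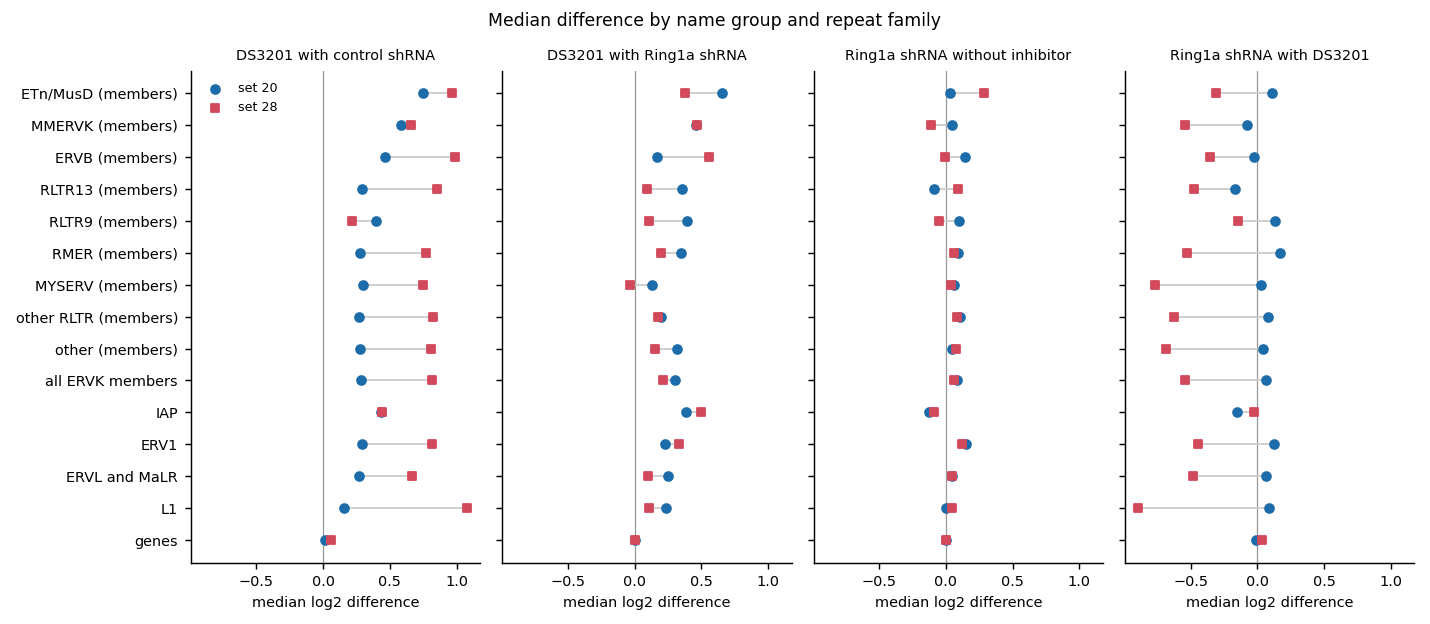
Median log2 difference (horizontal axis) of each name group of members, of all members and of other repeat families and genes, in set 20 (blue circles) and set 28 (red squares), for DS3201 under each shRNA and for the Ring1a shRNA without and with DS3201. With DS3201 under control shRNA the red squares of most repeat groups lie to the right of the blue circles, L1 included, while genes stay near 0.

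Internal parts and LTRs had similar median values. With the block, 11 of 36 internal parts rose (30.6%, beside 12.9% of all rows), with a median pooled log2 fold change of 0.38, and 23 of 210 LTRs rose (11%), with a median of 0.435. Without the block 1 of the 36 internal parts and 4 of the 210 LTRs rose, beside 5.24% of all rows. The 23 and the 4 LTRs both include ERVB4_3-LTR_MM and RLTR3_Mm, which passed the low-count filter only through libraries with DS3201. Internal parts were matched to 1 tested LTR by name, 8 by an identical stem and 6 after the ERVB and MMERVK10D3 names had been seen. In ERVB4_3 both parts were higher with DS3201, in ERVB4_2 the LTR alone passed, and RLTR10-int (0.62 ± 0.10) and RLTR10 (0.64 ± 0.22) had like values, of which only the first passed.

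**Figure D5:**
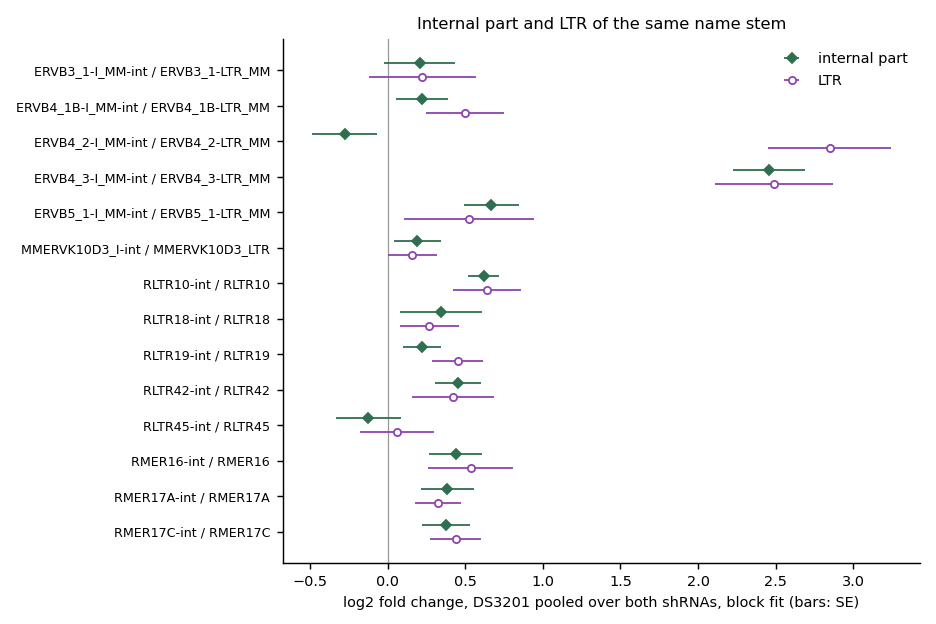
Pooled DS3201 log2 fold change in the fit with the block (horizontal axis; bars are 1 SE) of the internal part (green diamonds) and the LTR (open purple circles) that share a name stem, 1 pair per line. The ERVB4_2 pair is far apart, at -0.28 ± 0.21 and 2.85 ± 0.40, and the other pairs have overlapping or nearly overlapping bars.

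Not every member was higher with DS3201. RLTR45-int, an internal part on the list of well-known subfamilies, was at 92.1 and 82.4 CPM in the control, 92.2 and 98.0 in the knockdown, 57.1 and 123 in the inhibitor and 80.0 and 80.9 in the combined libraries. The inhibitor libraries were the lowest and the highest of all 8, and the pooled value was -0.12 ± 0.21 (SE, adjusted p = 0.720). Without the inhibitor library of set 28 it fell by a log2 fold change of -0.47 ± 0.08 (adjusted p = 0.00932). MurERV4-int and RLTR21, named after their values were seen, were the other members that fell in that fit, at -0.58 ± 0.08 and -0.43 ± 0.08 (SE). RLTR46B, also named after its values were seen, was lower with DS3201 in both sets. It was at 6.22 and 5.37 CPM in the control, 4.34 and 5.45 in the knockdown, 4.64 and 1.85 in the inhibitor and 2.82 and 2.04 in the combined libraries. Its groups overlapped, because the inhibitor library of set 20 was above the knockdown of that set, and the pooled value of -0.96 ± 0.30 (SE) missed the threshold with the block (adjusted p = 0.0725).

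Taken one shRNA at a time, the block called 12 members higher with control shRNA, beside 6.62% of all rows, and 3 with Ring1a shRNA (ERVB4_3-I_MM-int, ERVB4_2-LTR_MM and RLTR10B2), beside 6.05%. Without the block the counts were 1, beside 0.726%, and 0, beside 0.602%. With control shRNA the 12 became 113 without the inhibitor library of set 20 (beside 19.8% of all rows), 5 without that of set 28 (4.17%) and 0 to 8 without any other library (1.06% to 7.18%). With Ring1a shRNA the 3 became 14 (7.98%), 11 (7.89%) and 0 to 4 (0.743% to 6.31%). As shares of the members tested, the counts with the block were 4.88% and 1.22%, below those of the whole table. With Ring1a shRNA, 10 members had an unadjusted p under 0.05 without the block, all higher, beside 1280 higher and 217 lower of all 15287 rows. DESeq2 called 9 members with control shRNA, beside 4.78%, and 2 with Ring1a shRNA, beside 4.06%. Leaving out the inhibitor library of set 28, the fit without the block called 0 with control shRNA, beside 0.0378% of all rows. Against the untreated control, the combined libraries had 13 members higher with the block, beside 9.21%, and 1 without it, beside 1.43%. None was lower, where 2.06% of all rows were with the block and 0.0327% without it. DESeq2 called 6 higher, beside 6.01%. The 13 became 35 without the inhibitor library of set 20 (beside 13.4% of all rows), 28 without that of set 28 (13.1%) and 0 to 9 without any other library (1.5% to 9.64%). This comparison shares its controls with that of DS3201 under control shRNA, so the counts are not independent. Both the 12 and the 13 include RLTR3_Mm and ERVB4_3-LTR_MM, which passed the low-count filter only through libraries with DS3201.

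The Ring1a shRNA comparisons ask what this shRNA added in cells labelled as lacking Ring1b. All 8 libraries share that genotype, so an effect of losing Ring1b was not measured. No member passed in any of the comparisons with the Ring1a shRNA as the only difference, with the edgeR test without the block (0 at an unadjusted p under 0.05 as well), with the block or with DESeq2. With the block, an unadjusted p under 0.05 was reached by 3 members without inhibitor, all higher, and 6 with DS3201, all lower. Over all 15287 rows, 394 were higher and 182 lower without inhibitor, and 518 and 618 with DS3201. Without the block those counts over all rows were 103 and 51, and 124 and 148. Over all rows the edgeR fits called 0 in either state, and DESeq2 called 0.00654% lower without inhibitor, 0.0327% lower with DS3201 and, with both states pooled, 0.0458% higher and 0.111% lower. Without inhibitor the median member difference was 0.084 in set 20 and 0.057 in set 28, and 103 members were higher in both sets (41.9%, beside 36.3% of all rows). For ETnERV-int, which was higher in the knockdown of both sets, the value was 0.64 ± 0.50 without the block (SE, adjusted p = 1.00).

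The smallest p without inhibitor belonged to ERVB5_1-LTR_MM and ETnERV3-int. ERVB5_1-LTR_MM was at 0.190 and 0.402 CPM in the control libraries and at 0.934 and 0.942 with the shRNA, a log2 fold change of 1.67 ± 0.71 (SE, adjusted p = 1.00), and ETnERV3-int had 48.5 and 44.5 and 59.4 and 64.0 CPM. Neither passed. With 2 libraries a group, a miss does not show that the levels were equal.

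With DS3201, the difference between the combined and the inhibitor libraries had opposite medians in the sets, 0.064 in set 20 and -0.544 in set 28. The fitted median was -0.28 with all libraries and 0.10 without the inhibitor library of set 28, so its sign rests on that library. Without the block and with all libraries, the smallest p belonged to ETnERV2-int, at -1.19 ± 0.55, and to RLTR12BD_Mm, at -0.57 ± 0.25 (SE). With the block and without that inhibitor library, ETnERV2-int was at 0.16 ± 0.13. Its values differ in model as well as in libraries, so they do not show the part of that library alone. With both states pooled the smallest p belonged to RLTR12G and ERVB7_1-LTR_MM, neither of which passed. The interaction, the test of whether DS3201 acts differently under the 2 shRNAs, called 0 members in either edgeR fit and in DESeq2 (0 and 3 at an unadjusted p under 0.05 without and with the block). Over all rows those unadjusted counts were 9 higher and 14 lower without the block and 29 and 115 with it. The median interaction of the members was -0.37 with all libraries and 0.04 without the inhibitor library of set 28.

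Of 42 genes listed for their part in ERV silencing, all were tested. With DS3201 pooled over both shRNAs, 2 rose without the block (4.76%, beside 5.24% of all rows) and 4 with it (9.52%, beside 12.9%), and 0 fell. Dnmt3b, a DNA methyltransferase gene, was at 2.66 and 2.01 CPM in the control, 5.68 and 4.17 in the knockdown, 11.4 and 7.33 in the inhibitor and 13.7 and 10.5 in the combined libraries and rose by 1.64 ± 0.27 (SE, adjusted p = 0.0221). Rybp, a subunit of variant PRC1, was at 68.2 and 65.7 CPM in the control and 119 and 153 in the inhibitor libraries and rose by 0.83 ± 0.14 (SE, adjusted p = 0.0227). The block added Pcgf5, another variant PRC1 gene, and Ezh2, the gene of an enzyme DS3201 inhibits, at 0.66 ± 0.17 and 0.52 ± 0.13 (SE). The median of the list was 0.04, beside 0.04 over all rows.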

How the data were processed

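The authors deposited 1 table of raw, unscaled read counts whose rows are genes and repeat subfamilies. Per the submitters' processing notes, Trim Galore, TopHat2 and the build mm10 were used (versions not stated). How reads were counted, where multi-mapping reads went, whether strand was used and which repeat annotation applied is not given in the sources used here. Copies within a subfamily and related subfamilies share near-identical sequence, so how reads were split between such rows is uncertain. Of the table's columns, 8 were matched to labelled libraries and 8 were not used.

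The test was edgeR 4.0.16 under R 4.3.3: filterByExpr by group (15287 of 25215 rows kept), TMM scaling, quasi-likelihood F tests (two-sided, robust) on all 8 libraries with 1 term per group, and Benjamini-Hochberg adjustment over all rows tested, threshold 0.05. A second fit added the set as a block. DESeq2 1.42.0 was an alternative. CPM use TMM-scaled library sizes. Within-set log2 differences use a prior count of 2. Figures used matplotlib 3.10.9. The scripts were tested on simulated data.

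The labels number replicates, and each number is a batch, but the prefixes 20 and 28 are in no label. Deviations from group means correlated between libraries of the same prefix for all 6 pairs of groups (r across rows 0.559 to 0.897, and 0.429 to 0.74 across members), so the prefix was taken to pair them.

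Name groups, the silencing list and marker lists go by the starts of names or symbols. Members named were a set of well-known subfamilies, the called members with the largest changes (up to 8 per direction and fit), the 5 most counted, and the 2 with the smallest p where none passed. Members and lists were chosen with earlier results of these data known. Alternatives, including each library left out in turn, are in the closing section.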

Additional observations from a re-analysis of the deposited data

Results flagged for a closer look

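For 5 members both sets moved one way under one condition and the opposite way under the other. The test of that difference is the interaction, which called none of them (edgeR, without and with the block). For ERVB5_1-LTR_MM, DS3201 gave log2 differences of 1.27 and 1.47 (sets 20 and 28) with control shRNA and -0.38 and -0.75 with Ring1a shRNA, 1.94 apart on average (interaction -2.34 ± 0.98, SE, adjusted p = 1.000). It had at most 1.32 CPM in any library. The other 4 concern the Ring1a shRNA. ERVB4_3-LTR_MM had 0.88 and 0.47 without inhibitor and -0.12 and -1.18 with DS3201, 1.32 apart. RLTR34B_MM had 0.40 and 0.04 against -0.33 and -1.03, 0.90 apart. RLTR44-int had 0.29 and 0.11 against -0.05 and -0.55, 0.50 apart. MMERVK10D3_I-int had the opposite order, -0.22 and -0.08 against 0.03 and 0.20, an average of -0.26. The adjusted p of the interaction was 1 for each without the block.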

How the results depend on the processing

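With the replicate block the members called higher numbered 12 for DS3201 with control shRNA (1 without it), 3 with Ring1a shRNA (0), 34 pooled (5) and 13 for the combined libraries against control (1), and the same fit scaled on gene rows alone gave 12, 3, 36 and 13. DESeq2 gave 9, 2, 18 and 6. With only the libraries compared, the counts for control shRNA and for the combined libraries were 0 and 0, and with no low-count filter the count with Ring1a shRNA was 1. RLE factors and gene-row TMM without the block left these 4 counts at 1, 0, 5 and 1. Leaving out each library in turn without the block gave 0 to 2, 0, 1 to 24 and 0 to 1 members higher. With the block, an alternative chosen after seeing the data, it gave 0 to 113, 0 to 14, 7 to 124 and 0 to 35 higher, among them 8, 1, 12 and 9 without knockdown set 28, 7, 0, 10 and 8 without knockdown set 20, 0, 2, 11 and 1 without control set 20, and 5, 11, 28 and 28 without inhibitor set 28. Members lower numbered 0 to 2, 0 to 2, 0 to 3 and 0 to 3. The maxima of 113, 124 and 35 (beside 19.8%, 22.8% and 13.4% of all rows) came without the inhibitor library of set 20, which leaves the set 28 library alone in its group and assumes that it varies like the others. That fit also gave 56 members lower for the Ring1a shRNA with DS3201 (range 0 to 56, beside 13.7% of all rows in that fit), 32 pooled (0 to 32, beside 11.1%) and 38 for the interaction (0 to 38, beside 6.21%), and up to 1 higher in the first and the second. One call turned: RLTR45-int, DS3201 with control shRNA, was 0.05 ± 0.34 without the block and -0.68 (adjusted p = 0.0329) in the block fit that leaves the set 28 inhibitor library out. The causes were not tested. Depth limits the 11 members under 1 CPM most.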
